A study of Saccharomyces cerevisiae with 18 samples.

Results

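The 10 genes described here belong to the fermentation branch of budding yeast and were followed through all 18 RNA libraries of a study of the Rvb1 and Rvb2 ATPases, out of 7126 features in the deposited tables. They were chosen by name: the pyruvate decarboxylases PDC1, PDC5 and PDC6, the alcohol dehydrogenases ADH1, ADH2, ADH4 and ADH5, the aldehyde dehydrogenases ALD4 and ALD6, and the butanediol dehydrogenase BDH1. Rvb1 and Rvb2 are AAA+ ATPases that act with Pih1 and Tah1 in the R2TP complex, and the strains were BY4741, a haploid of mating type a with deletions in histidine, leucine, methionine and uracil genes. Per the labels the 6 groups were Rvb1-tagged wild type, Rvb1-tagged PIH1 deletion, Rvb1-tagged TAH1 deletion, and the same 3 genotypes with Rvb2 tagged in place of Rvb1, each with 3 biological replicates, so that every strain, wild types included, carried a tag on one of the ATPases. The sources used here do not give the kind of tag or the number of clones behind a group, and each pair of deletions in a background shares its wild type libraries. Cultures of 5 ml in YPD, a rich glucose medium, were shaken at 30 °C and harvested at an OD600 between 1.2 and 1.5, and poly(A)-selected RNA was sequenced. Since RNA was taken from whole cultures, fewer cells with a transcript and less of it per cell cannot be told apart.

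On glucose, yeast ferments even with oxygen present. Pyruvate decarboxylase turns pyruvate into acetaldehyde, alcohol dehydrogenase reduces acetaldehyde to ethanol and returns NAD+ to glycolysis, and aldehyde dehydrogenase oxidises part of the acetaldehyde to acetate, the precursor of cytosolic acetyl-CoA. When glucose runs out, ethanol is taken up again and Adh2, which glucose represses, oxidises it. Bdh1 makes 2,3-butanediol from acetoin, a side product of pyruvate decarboxylation.

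Several of these genes are near copies, which bears on how reads could be assigned to them, so the first 90 coding bases of the closest copies are shown. They were read from the RefSeq R64 genome, which has the coordinates of sacCer3, the build in the submitters' processing notes. ADH1 lies on the minus strand at chrXV:160505-160594 and ADH2 on the minus strand at chrXIII:874248-874337. Capitals mark bases of ADH2 that differ from ADH1.
ADH1: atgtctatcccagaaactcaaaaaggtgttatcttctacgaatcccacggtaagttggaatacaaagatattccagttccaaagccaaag
ADH2: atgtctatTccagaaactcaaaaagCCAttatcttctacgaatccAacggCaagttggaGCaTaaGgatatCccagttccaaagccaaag
In this stretch ADH2 differed at 11 bases. Over the whole coding sequence of 1047 bases the pair was 88.8% identical and had a run of 189 identical bases, and 140 of the 998 windows of 50 bases in ADH2 also occurred in ADH1. ADH5 was 73.8% identical to ADH1 and shared no such window with it.

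The 3 pyruvate decarboxylase genes start at chrXII:233992-234081 on the minus strand (PDC1), chrXII:410723-410812 on the plus strand (PDC5) and chrVII:652892-652981 on the minus strand (PDC6). Capitals mark bases that differ from PDC1.
PDC1: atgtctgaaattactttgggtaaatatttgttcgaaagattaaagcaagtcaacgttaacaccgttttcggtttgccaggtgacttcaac
PDC5: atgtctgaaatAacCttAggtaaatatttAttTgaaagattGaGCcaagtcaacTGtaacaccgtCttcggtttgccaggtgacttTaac
PDC6: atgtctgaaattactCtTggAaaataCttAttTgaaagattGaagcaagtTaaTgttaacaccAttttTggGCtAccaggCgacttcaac
PDC5 was 87.2% identical to PDC1 over 1692 coding bases, with 16 of 1643 windows of 50 bases in common. PDC6 was 75% identical to PDC1 and shared no window with it or with PDC5. How reads that match more than one place were treated is not stated, so levels of ADH2, and to a lesser degree of PDC5, are uncertain to the extent that reads of ADH1 and PDC1 were counted for them.

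Upstream windows are shown for ADH2, which had the largest rise of the 10 genes, and for ALD4 and ALD6, which were each other's most similar gene over the libraries. Each runs from 350 to 101 bases before the start codon. In the ADH2 window (chrXIII:874438-874687, minus strand) capitals mark TTGGNG on either strand, the core bound by Adr1, the activator of ADH2.
ADH2: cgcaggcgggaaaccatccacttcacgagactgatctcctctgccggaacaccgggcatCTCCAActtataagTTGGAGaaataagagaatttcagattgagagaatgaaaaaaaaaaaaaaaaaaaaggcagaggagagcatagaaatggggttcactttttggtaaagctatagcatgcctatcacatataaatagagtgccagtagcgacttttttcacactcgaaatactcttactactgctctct
In ALD4 (chrXV:1039490-1039739, plus strand) and ALD6 (chrXVI:432238-432487, plus strand) capitals mark AGGGG on either strand, the stress response element read by Msn2 and Msn4.
ALD4: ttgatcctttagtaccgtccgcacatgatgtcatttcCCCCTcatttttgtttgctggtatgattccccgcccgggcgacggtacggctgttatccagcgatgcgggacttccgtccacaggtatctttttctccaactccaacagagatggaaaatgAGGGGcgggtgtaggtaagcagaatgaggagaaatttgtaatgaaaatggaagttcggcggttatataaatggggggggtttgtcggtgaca
ALD6: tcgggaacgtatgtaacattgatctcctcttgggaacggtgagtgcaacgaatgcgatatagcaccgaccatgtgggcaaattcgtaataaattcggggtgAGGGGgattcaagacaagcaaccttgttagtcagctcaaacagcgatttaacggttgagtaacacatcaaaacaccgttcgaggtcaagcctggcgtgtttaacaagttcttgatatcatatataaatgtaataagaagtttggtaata
The ADH2 window held TTGGNG in opposite orientations, starting 291 and 277 bases before the start codon, and 29.5% of the 6001 windows of protein-coding genes held it at least once. ADH1 and ALD4 held it too. AGGGG stood at 313 and 192 bases in ALD4 and at 249 bases in ALD6, and also in the windows of PDC1, ADH1 and BDH1, 5 of the 10 genes against 20.1% of all windows. CTTCC, the core bound by the glycolytic activator Gcr1, was found in ADH1 at 4 places and in ADH5 and ALD4, against 40.3% of all windows. The zinc-responsive element bound by Zap1 (ACCTT, any base, AAGGT) was in the window of none of the 10 genes and in 5 of all windows, which says only that these letters are absent from this stretch. None of the motifs contains another, and a match is a description of the sequence, not of binding.

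Summed normalized counts ran from 4829249 to 5412654 per library, and the 10 genes together took 1.6% to 3.05% of them. PIH1 and TAH1 were at 0 to 9 normalized counts in the libraries labelled as their deletions and at 125 to 234 in all others. The 5 a-cell markers MFA1, MFA2, STE2, BAR1 and STE6 summed to 12144 to 17658, and the 4 alpha-cell markers to 324 to 551, with the pheromone gene MFALPHA1 at 0 to 11. With tagged Rvb2 the a-cell sum was 13695 to 14227 in the wild type, 17275 to 17484 in the PIH1 deletion and 12972 to 13196 in the TAH1 deletion. In that PIH1 deletion 4 of the 5 a-cell markers rose and BAR1 fell. With tagged Rvb1 the a-cell sums were 12144 to 13306, 14626 to 14897 and 16522 to 17658 in the same order. The alpha-cell sum was 470 to 551 in the Rvb2-tagged PIH1 deletion and 417 to 428 in the Rvb2-tagged TAH1 deletion, against 343 to 357 in their wild type. Most of it was the agglutinin gene SAG1, at 411 to 492 in that PIH1 deletion against 256 to 290 (0.66 ± 0.08 on the log2 scale), and MFALPHA2 was higher too (0.48 ± 0.19), whereas the a-factor receptor gene STE3 was lower, at 4 to 10 against 27 to 36 (-2.01 ± 0.37). The MFALPHA2 change missed the threshold in 4 of 26 repeats with another setting or 1 library left out. With tagged Rvb1 STE3 was lower too, at 1 to 4 and 4 to 10 in the PIH1 and TAH1 deletions against 26 to 28. The part of these markers in the results was not tested. Among the Rvb1-tagged wild types replicate 2 was set off from the others, at a root mean square log2 distance of 0.404 from the mean of the other replicates against 0.155 to 0.306 for the other 17 libraries. Changes of the members against their wild type that crossed the threshold, turned sign or moved by over 1.5 times without it are given both ways beside the result. The title of replicate 1 of the Rvb2-tagged wild type was followed, although its source field names Rvb1.

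FPKM levels ran from 0 for PDC6 to 12621 for ADH1. Per length, ADH1 was the most abundant of the 10 in the Rvb1-tagged wild type, at 9785 ± 480 FPKM (a level scaled to gene length and library size, mean ± SD, n = 3, as throughout), and PDC1 followed at 8432 ± 131 FPKM. ALD6 came next at 999 ± 353 FPKM, then BDH1 at 201 ± 46.9, ADH4 at 85 ± 11.4, ALD4 at 79 ± 35.2, ADH5 at 43.7 ± 15.5, ADH2 at 29.7 ± 11.6, PDC5 at 18.3 ± 1.15 and PDC6 at 1.33 ± 0.577 FPKM. The spreads of ADH4 and ALD4 overlapped, with ALD4 the higher in 2 of the 3 libraries. Those of ADH5 and ADH2 overlapped as well, although ADH5 was the higher in each of the 3 libraries. In the Rvb2-tagged wild type ADH1 stood at 11043 ± 1368 FPKM and PDC1 at 8376 ± 911 FPKM, and ALD4 (99.3 ± 8.5) lay above ADH4 (86.3 ± 3.51). PDC1 ranked between 2 and 5 among all features by normalized count in every library. All 10 genes passed the filter of a mean of at least 10 normalized counts. PDC6 did so at 10.6, and its mean without the Rvb2-tagged PIH1 deletion was 8.4, so it passed only through the group in which it was high. Its changes are therefore given apart, and counts and medians below are over the other 9 genes.

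**Figure D1:**
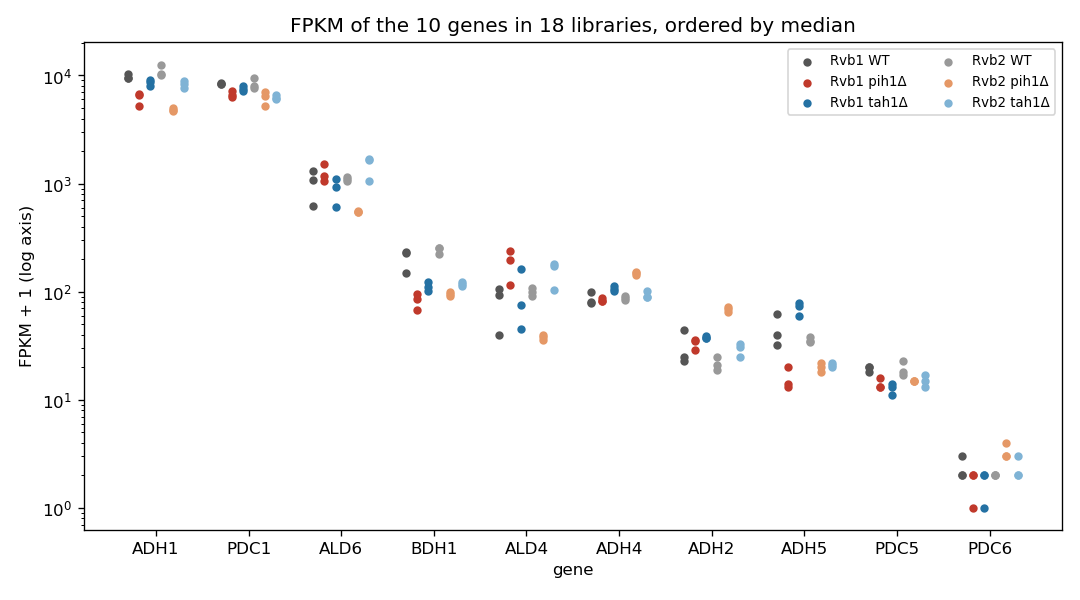
FPKM + 1 of the 10 genes on a log axis, 1 point per library, coloured by group and ordered by the median over 18 libraries. ADH1 and PDC1 sit together at the top and PDC6 lies at 0 to 3 FPKM in every library.

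BDH1 and PDC5 fell on loss of either R2TP component in both tagged backgrounds, although the PDC5 calls with tagged Rvb2 rested on single libraries. ADH1 and PDC1 passed as lower in every deletion but the Rvb1-tagged TAH1 deletion. There all deletion libraries of both genes lay below every wild type library, but neither change passed. Some repeats, given below, also lost the Rvb1-tagged calls of PDC5 and the PIH1 deletion calls of PDC1. The BDH1 call in the Rvb1-tagged TAH1 deletion was lost in a fit of only the libraries compared. Genes were tested with limma on log2(normalized count + 1), with Benjamini-Hochberg adjustment over 5825 genes and a threshold of 0.05, and a p-value reflects how far these libraries spread, which may in part be technical. In the PIH1 deletion 5 of the 9 genes fell and 1 rose with tagged Rvb1, where 38.0% of all tested genes passed (18.7% lower and 19.2% higher). With tagged Rvb2 9 of the 9 passed, 7 lower and 2 higher, against 69.6% of all genes (34.4% lower and 35.2% higher). In the TAH1 deletion 2 fell and 2 rose with tagged Rvb1, where 10.8% of all genes passed (4.48% lower and 6.28% higher), and 5 fell and 0 rose with tagged Rvb2, where 44.4% passed (20.6% lower and 23.8% higher; 6 of the 9 had an unadjusted p under 0.05). In a fit of only the Rvb1-tagged wild type and TAH1 deletion libraries 0 of the 9 passed. The number ranged from 2 to 5 with single libraries left out, 2 without wild type replicate 1 or 3 or TAH1 deletion replicate 1. The median log2 change of the 9 was -0.33 and -0.16 in the Rvb1-tagged PIH1 and TAH1 deletions and -0.89 and -0.36 with tagged Rvb2, beside medians of 0.00 to 0.02 over all genes. The 3 deletion and 3 wild type libraries failed to overlap in 42.7%, 22.5%, 71.7% and 53.5% of all genes in the order PIH1 and TAH1 deletion with tagged Rvb1, then with tagged Rvb2.

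**Figure D2:**
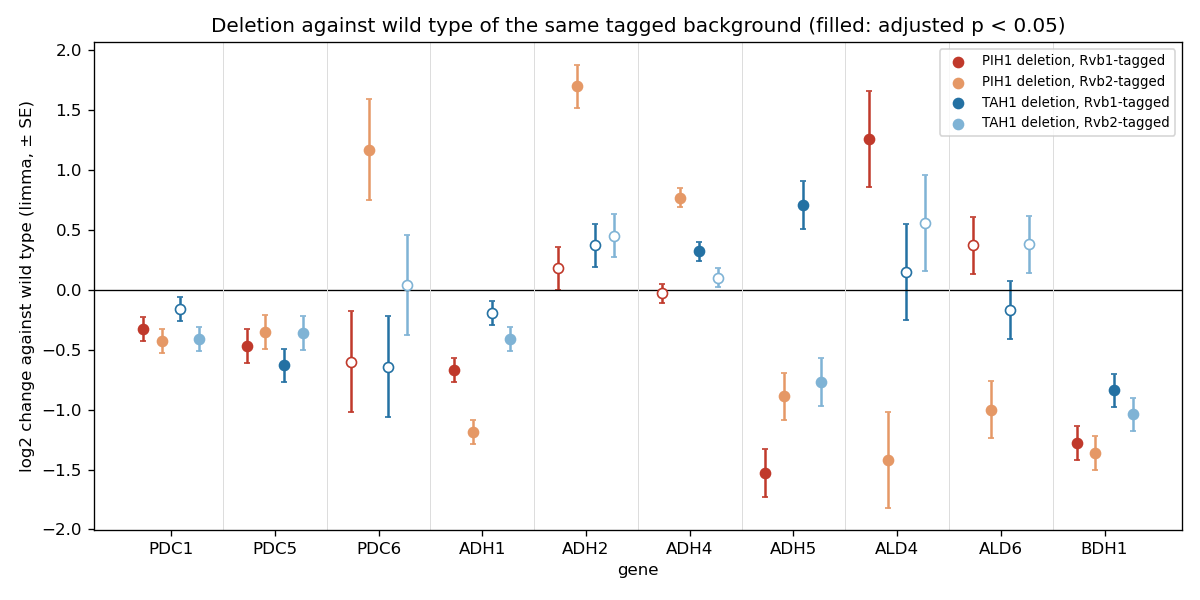
Log2 change of each gene against the wild type of the same tagged background, with standard errors from limma. Filled points passed the threshold of 0.05 and open points did not. BDH1 and PDC5 were lower in all 4 deletions, while ALD4 passed in opposite directions in the PIH1 deletions.

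PDC1 (YLR044C, protein-coding, 1 exon, chromosome XII, 232390 to 234081) encodes the main pyruvate decarboxylase of growing cells. With tagged Rvb1 its normalized counts were 74359, 72922 and 72113 in the wild type, 62488, 55087 and 57124 in the PIH1 deletion, and 62034, 68817 and 65711 in the TAH1 deletion. With tagged Rvb2 they were 81651, 69420 and 66867 in the wild type, 55505, 60818 and 45571 in the PIH1 deletion, and 57430, 52378 and 53955 in the TAH1 deletion. Every deletion library lay below every wild type library of its background. In the Rvb1-tagged strains PDC1 fell by 0.33 ± 0.10 (SE) on the log2 scale on loss of PIH1 (adjusted p = 0.0198), and its change on loss of TAH1 was -0.16 ± 0.10 (adjusted p = 0.338). In the Rvb2-tagged strains it fell by 0.43 ± 0.10 without PIH1 (adjusted p = 0.00134) and fell by 0.41 ± 0.10 without TAH1 (adjusted p = 0.00439). The first of these calls did not hold with no filter (adjusted p = 0.0597) or with wild type replicate 1, PIH1 deletion replicate 2 or PIH1 deletion replicate 3 left out (adjusted p = 0.0615, 0.0747 and 0.0558). Quantile normalization, which gives equal ranks equal values, put the PIH1 deletion changes at -0.11 with tagged Rvb1 and 0.00 (adjusted p = 1) with tagged Rvb2, where PDC1 ranked 3 or better in all 6 libraries.

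PDC5 (YLR134W, chromosome XII, 410723 to 412414), the copy that rises when PDC1 or thiamine is lacking, was at 0.132% to 0.271% of the PDC1 count. It stood at 161, 144 and 163 normalized counts in the Rvb1-tagged wild type, 104, 107 and 128 in the PIH1 deletion and 112, 104 and 87 in the TAH1 deletion. With tagged Rvb2 the values were 188, 144 and 141, then 124, 126 and 118, then 100, 142 and 126. The groups overlapped only in the last of these 4 comparisons. PDC5 fell by 0.47 ± 0.14 in the PIH1 deletion (adjusted p = 0.0143) and fell by 0.63 ± 0.14 in the TAH1 deletion (adjusted p = 0.00693) with tagged Rvb1. In the Rvb2-tagged strains it fell by 0.35 ± 0.14 on loss of PIH1 (adjusted p = 0.0331) and fell by 0.36 ± 0.14 on loss of TAH1 (adjusted p = 0.0421). Both calls with tagged Rvb2 rested on single libraries: without wild type replicate 1 the changes were -0.22 (adjusted p = 0.181) and -0.23 (adjusted p = 0.2), and without TAH1 deletion replicate 1 the latter was -0.22 (adjusted p = 0.226). They were also lost without any 1 of the PIH1 deletion libraries (adjusted p = 0.0506 to 0.0882), and the latter without TAH1 deletion replicate 3 (adjusted p = 0.0639), in a fit of only the libraries compared (adjusted p = 0.0767), with no filter (adjusted p = 0.0539) and with library weights (adjusted p = 0.0667). With tagged Rvb1 the PIH1 call went when wild type replicate 3 or PIH1 deletion replicate 1 was left out (adjusted p = 0.0517 and 0.0612), and the TAH1 call in a fit of only the libraries compared (adjusted p = 0.0645). With quantile normalization the PIH1 changes were -0.34 (adjusted p = 0.0545) and -0.22 (adjusted p = 0.137).

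PDC6 (YGR087C, chromosome VII, 651290 to 652981), a decarboxylase little used on glucose, had the lowest counts of the 10. It was at 8, 9 and 13 normalized counts in the Rvb1-tagged wild type, at 3, 8 and 9 in the PIH1 deletion and at 4, 5 and 10 in the TAH1 deletion. With tagged Rvb2 it was at 8, 8 and 11 in the wild type and at 5, 10 and 15 in the TAH1 deletion, but at 17, 26 and 22 in the PIH1 deletion, above every other library. Its log2 change there was 1.17 ± 0.42 (adjusted p = 0.0192, and 0.0153 with no filter), which is given as a description, since PDC6 entered the test through these libraries. With wild type replicate 2, wild type replicate 3 or PIH1 deletion replicate 2 left out it no longer passed (adjusted p = 0.0534, 0.0515 and 0.0681), nor did it with quantile normalization (adjusted p = 0.0946) and with the FPKM table (0.72, adjusted p = 0.052). The other log2 changes were -0.60 ± 0.42, -0.64 ± 0.42 and 0.04 ± 0.42, in which the groups overlapped.

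ADH1 (YOL086C, chromosome XV, 159548 to 160594) encodes the fermentative alcohol dehydrogenase. In the Rvb2-tagged strains it stood at 67735, 55375 and 54692 normalized counts in the wild type, 25538, 26900 and 25122 in the PIH1 deletion, and 41155, 44669 and 47529 in the TAH1 deletion. With tagged Rvb1 the values were 50936, 55487 and 51121, then 28217, 35879 and 35400, then 47006, 48565 and 42763. Neither deletion overlapped its wild type in either background, and PIH1 deletions lay below TAH1 deletions. ADH1 fell by 1.19 ± 0.10 on loss of PIH1 with tagged Rvb2 (adjusted p = 3.59e-08), to 0.438 of the wild type level, and fell by 0.67 ± 0.10 with tagged Rvb1 (adjusted p = 0.000115). On loss of TAH1 it fell by 0.41 ± 0.10 with tagged Rvb2 (adjusted p = 0.00405), or -0.24 with quantile normalization, and its change with tagged Rvb1 was -0.19 ± 0.10 (adjusted p = 0.251). Its share of all counts went from 1.1% to 1.28% in the Rvb2-tagged wild type to 0.52% to 0.551% in the PIH1 deletion.

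ADH2 (YMR303C, chromosome XIII, 873291 to 874337), the glucose-repressed enzyme of ethanol use, moved the other way in the PIH1 deletion with tagged Rvb2. Its normalized counts there were 379, 367 and 344, against 130, 99 and 107 in the wild type and 171, 130 and 159 in the TAH1 deletion. It rose 3.24-fold (1.70 ± 0.18 on the log2 scale, adjusted p = 3.78e-07). With tagged Rvb1 the values were 128, 230 and 120 in the wild type, 189, 183 and 148 in the PIH1 deletion, and 194, 203 and 193 in the TAH1 deletion. Wild type replicate 2 was the highest of these 9 libraries, and the groups overlapped. The log2 changes were 0.18 ± 0.18 (PIH1, adjusted p = 0.475) and 0.37 ± 0.18 (TAH1, adjusted p = 0.202). Without that replicate they were 0.47 (adjusted p = 0.00537) and 0.66 (adjusted p = 0.000507). In the Rvb2-tagged TAH1 deletion the change was 0.45 ± 0.18 (adjusted p = 0.0557), and it passed in a fit of only the libraries compared (adjusted p = 0.0218), with library weights (adjusted p = 8.05e-06), without any 1 of the Rvb1-tagged wild type libraries (adjusted p = 0.00292 to 0.0487), without wild type replicate 1 (adjusted p = 0.0371) and without TAH1 deletion replicate 2 (adjusted p = 0.0373). The ADH2 count was 0.179% to 0.196% of the ADH1 count in the Rvb2-tagged wild type and 1.36% to 1.48% in the PIH1 deletion. The part that reads shared with ADH1 play in these counts was not tested, and ADH2 was highest where ADH1 was lowest.

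**Figure D3:**
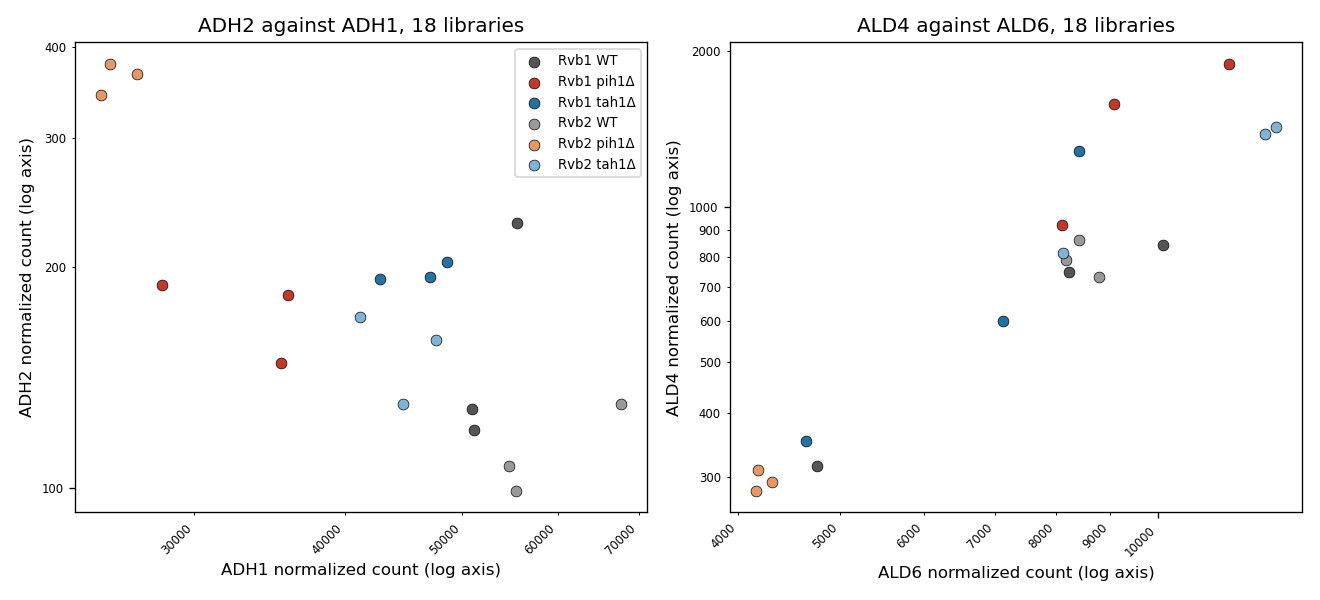
Normalized counts of ADH2 against ADH1 (left) and of ALD4 against ALD6 (right) on log axes, 1 point per library, coloured by group. The 3 PIH1 deletion libraries with tagged Rvb2 combine the highest ADH2 (344 to 379) with the lowest ADH1, and the lowest ALD4 with the lowest ALD6.

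ADH4 (YGL256W, chromosome VII, 15159 to 16307) encodes an alcohol dehydrogenase unrelated in sequence to Adh1 and induced on zinc shortage. It lay within 454 to 589 in 4 of the groups, at 473, 577 and 454 normalized counts in the Rvb1-tagged wild type, 505, 479 and 479 in the PIH1 deletion, 528, 489 and 505 in the Rvb2-tagged wild type and 589, 524 and 524 in the Rvb2-tagged TAH1 deletion. The Rvb2-tagged PIH1 deletion was higher than all others, at 871, 835 and 888, a rise of 0.77 ± 0.08 (adjusted p = 1.97e-07). The Rvb1-tagged TAH1 deletion stood at 654, 614 and 596, a rise of 0.32 ± 0.08 (adjusted p = 0.0154). The latter was not called with wild type replicate 1 or 3 or TAH1 deletion replicate 1 left out (adjusted p = 0.0852, 0.102 and 0.0722) or in a fit of only the libraries compared (adjusted p = 0.185). Without wild type replicate 2 that rise was 0.42 (adjusted p = 5.39e-05). The remaining log2 changes were -0.03 ± 0.08 in the Rvb1-tagged PIH1 deletion (0.07 without wild type replicate 2) and 0.10 ± 0.08 in the Rvb2-tagged TAH1 deletion.

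ADH5 (YBR145W, chromosome II, 533762 to 534817), a minor alcohol dehydrogenase of the Adh1 type, was the member that parted the Rvb1-tagged deletions most. It stood at 168, 330 and 210 normalized counts in the wild type, at 65, 71 and 103 in the PIH1 deletion and at 389, 421 and 316 in the TAH1 deletion. The deletions did not overlap each other, and differed by -2.24 ± 0.20 (PIH1 against TAH1 deletion, adjusted p = 2.2e-07). Against the wild type ADH5 fell by 1.53 ± 0.20 on loss of PIH1 (adjusted p = 1.86e-05; -1.26 without wild type replicate 2) and rose by 0.71 ± 0.20 on loss of TAH1 (adjusted p = 0.0276). The rise overlapped with wild type replicate 2. With wild type replicate 1 or 3 left out it did not pass (0.50 and 0.66, adjusted p = 0.162 and 0.109), nor with TAH1 deletion replicate 1 or 2 left out (adjusted p = 0.0819 and 0.1) or in a fit of only the libraries compared (adjusted p = 0.201), and was 0.98 (adjusted p = 8.44e-05) without wild type replicate 2. With tagged Rvb2 ADH5 was at 180, 185 and 198 in the wild type and fell in both deletions, to 101, 91 and 112 (-0.89 ± 0.20, adjusted p = 0.00064) and to 106, 115 and 107 (-0.77 ± 0.20, adjusted p = 0.00397).

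The aldehyde dehydrogenases, mitochondrial ALD4 (YOR374W, chromosome XV, 1039840 to 1041399) and cytosolic ALD6 (YPL061W, chromosome XVI, 432588 to 434090), were lowest in the Rvb2-tagged PIH1 deletion. ALD4 stood at 731, 788 and 861 normalized counts in the wild type and at 282, 309 and 293 in the deletion, a log2 change of -1.42 ± 0.40 (adjusted p = 0.00402). ALD6 stood at 8795, 8171 and 8413 and at 4158, 4180 and 4311, so that it fell by 1.00 ± 0.24 (adjusted p = 0.00141). In the Rvb2-tagged TAH1 deletion ALD4 was at 813, 1382 and 1424 and ALD6 at 8116, 12612 and 12925, so that replicate 1 lay with the wild type and the other replicates above it. Neither passed (0.56 ± 0.40, adjusted p = 0.261, and 0.38 ± 0.24, adjusted p = 0.22). Both passed with library weights (0.70, adjusted p = 0.00696, and 0.53, adjusted p = 0.000925), and ALD4 in a fit of only the libraries compared (adjusted p = 0.0187).

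With tagged Rvb1 both genes were uneven within groups. ALD4 was at 843, 315 and 747 in the wild type, 920, 1889 and 1576 in the PIH1 deletion, and 1279, 353 and 601 in the TAH1 deletion. ALD6 was at 10096, 4746 and 8238, then 8098, 11675 and 9080, then 8417, 4635 and 7129. Replicate 2 of the wild type and replicate 2 of the TAH1 deletion were the lowest of their groups in both genes, near the level of the Rvb2-tagged PIH1 deletion. ALD4 rose on loss of PIH1 by 1.26 ± 0.40 (adjusted p = 0.0192), and by 0.82 (adjusted p = 0.0641) without wild type replicate 2. The call also went with PIH1 deletion replicate 2 or 3 left out (adjusted p = 0.0825 and 0.059) and in a fit of only the libraries compared (adjusted p = 0.0678). The other log2 changes did not pass: 0.37 ± 0.24 for ALD6 on loss of PIH1 (0.06 without wild type replicate 2), 0.15 ± 0.40 for ALD4 on loss of TAH1 (-0.29 without wild type replicate 2 and -0.34 without TAH1 deletion replicate 1) and -0.17 ± 0.24 for ALD6 (-0.48 without wild type replicate 2).

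BDH1 (YAL060W, chromosome I, 35155 to 36303) fell in all 4 deletions. Its normalized counts were 1359, 867 and 1326 in the Rvb1-tagged wild type, 393, 496 and 561 in the PIH1 deletion, and 719, 642 and 589 in the TAH1 deletion. With tagged Rvb2 they were 1317, 1486 and 1474, then 530, 581 and 557, then 667, 721 and 693. Every deletion library lay below every wild type library, also the low replicate 2 of the Rvb1-tagged wild type. With tagged Rvb1 it fell by 1.28 ± 0.14 on loss of PIH1 (adjusted p = 4.62e-06) and fell by 0.84 ± 0.14 on loss of TAH1 (adjusted p = 0.00108). In the Rvb2-tagged strains it fell by 1.36 ± 0.14 without PIH1 (adjusted p = 2.72e-07) and fell by 1.04 ± 0.14 without TAH1 (adjusted p = 1.34e-05). Without that replicate the changes with tagged Rvb1 were -1.49 and -1.05 (adjusted p = 3.84e-09 and 3.91e-07). The change in the Rvb1-tagged TAH1 deletion missed the threshold in a fit of only the libraries compared (adjusted p = 0.0803).

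**Figure D4:**
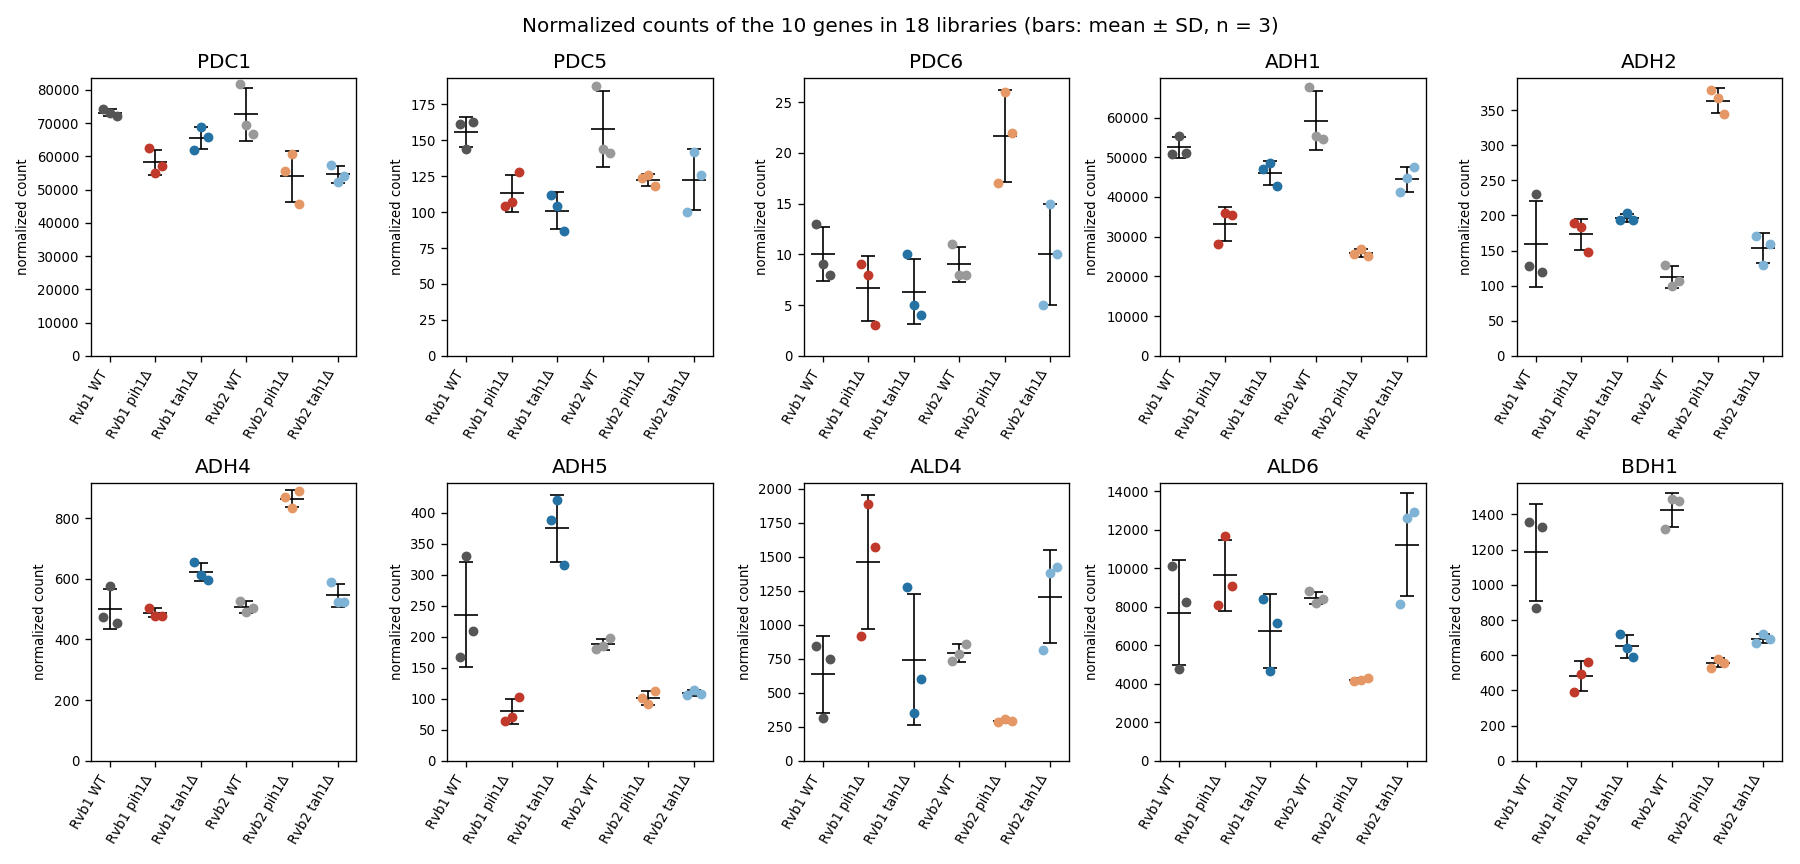
Normalized counts of the 10 genes, 1 panel per gene with its own axis from 0, 1 point per library and the mean ± SD of 3 libraries per group. BDH1 lies below the wild type in all deletions, while ADH2, ADH4 and PDC6 are highest and ALD4 and ALD6 lowest in the PIH1 deletion with tagged Rvb2.

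The effect of losing PIH1 differed between the tagged backgrounds for 5 of the 9 genes, PDC6 left aside, where 50.3% of all genes differed, and that of losing TAH1 for 1 of 9, where 24.5% did. For ALD4 the difference (Rvb2-tagged minus Rvb1-tagged) was -2.68 ± 0.56 (adjusted p = 0.000924), and for ALD6 it was -1.38 ± 0.34 (adjusted p = 0.00343). Without Rvb1-tagged wild type replicate 2 these were -2.24 (adjusted p = 0.000719) and -1.06 (adjusted p = 0.00318). ADH2 (1.52 ± 0.26, adjusted p = 0.000174) and ADH4 (0.80 ± 0.11, adjusted p = 2.68e-05) were higher and ADH1 (-0.52 ± 0.15, adjusted p = 0.00749) lower in the Rvb2-tagged strains relative to the Rvb1-tagged ones. With Rvb1-tagged wild type replicate 2 left out, ADH2 differed by 1.22, ADH4 by 0.70 and ADH1 by -0.56 (adjusted p = 1.41e-05, 4.3e-06 and 0.00444). The difference for PDC6 was 1.78 ± 0.59 (adjusted p = 0.0194), a description for the reason given above. It no longer passed with Rvb1-tagged PIH1 deletion replicate 3 left out (adjusted p = 0.059) or with quantile normalization (adjusted p = 0.142). The TAH1 effect differed for ADH5, by -1.49 ± 0.28 (adjusted p = 0.000523). Without Rvb1-tagged wild type replicate 2 it was -1.76, and 3 genes differed in place of 1. BDH1 differed by -0.08 ± 0.20 and -0.20 ± 0.20, and PDC1 by -0.10 ± 0.15 and -0.25 ± 0.15, none past the threshold. Differences that had not passed with all libraries were not followed gene by gene in the repeats. Without Rvb1-tagged wild type replicate 2, BDH1 changed by -1.49 and -1.05 with tagged Rvb1 and by -1.36 and -1.04 with tagged Rvb2. Its falls with tagged Rvb1 were then the larger, the reverse of the order with all libraries.

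Set against each other, the deletions with tagged Rvb1 differed in 5 of the 9 genes, where 26.5% of all genes did, and those with tagged Rvb2 in 5, where 62.3% did. With tagged Rvb2 the PIH1 deletion was higher in ADH2 (1.25 ± 0.18) and ADH4 (0.66 ± 0.08) and lower in ADH1 (-0.78 ± 0.10), ALD4 (-1.99 ± 0.40) and ALD6 (-1.38 ± 0.24), with adjusted p values of 1.66e-06 to 0.000352. PDC6 stood 1.13 ± 0.42 higher (adjusted p = 0.026). It missed the threshold with the FPKM table (0.53, adjusted p = 0.158), without PIH1 deletion replicate 2 or 3 (adjusted p = 0.0862 and 0.0614) and without TAH1 deletion replicate 1 (0.75, adjusted p = 0.145). With tagged Rvb1 the PIH1 deletion was lower in ADH5, as above, in ADH1 (-0.48 ± 0.10, adjusted p = 0.00235), ADH4 (-0.35 ± 0.08, adjusted p = 0.00317) and BDH1 (-0.44 ± 0.14, adjusted p = 0.0315), and higher in ALD4 (1.11 ± 0.40, adjusted p = 0.0469; 0.67 and adjusted p = 0.247 without TAH1 deletion replicate 2). That ALD4 call also went with PIH1 deletion replicate 2 or 3 or TAH1 deletion replicate 3 left out (adjusted p = 0.169, 0.125 and 0.116), in the fit of only the libraries compared (adjusted p = 0.0591), with no filter, quantile normalization or FPKM values (adjusted p = 0.0553, 0.0577 and 0.0628), and with 8 of the 9 Rvb2-tagged libraries left out 1 at a time (adjusted p = 0.0538 to 0.059). BDH1 did not pass with PIH1 deletion replicate 1 or 2 left out (-0.30 and -0.46, adjusted p = 0.168 and 0.057), with TAH1 deletion replicate 1 or 2 left out (adjusted p = 0.122 and 0.0693) or with quantile normalization (adjusted p = 0.0542).

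The wild types differed from each other in 0 of the 9 genes by limma, with 1 (ADH2) at an unadjusted p under 0.05 and 1 past the threshold with library weights, and 0.206% of all genes passed. Their log2 changes, Rvb2-tagged against Rvb1-tagged, ran from -0.45 ± 0.18 for ADH2 (adjusted p = 0.159) to 0.44 ± 0.40 for ALD4 (adjusted p = 0.516). Without the Rvb1-tagged replicate 2 they were -0.15 and 0.00.

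Over the 18 libraries, which share 6 groups and so are not independent points, the genes most like each member were named by Pearson's r of log2(normalized count + 1), as a description with no test. ALD4 and ALD6 were each other's nearest gene among all tested (r = 0.943), followed by DDR2 for ALD4 (0.906) and NSG2 for ALD6 (0.908). ADH1 ran closest to the glycolytic enzyme genes FBA1 (0.980), for aldolase, and GPM1 (0.978), for phosphoglycerate mutase. Next to ADH2 were ARB1 (0.971) and EFM2 (0.970), to ADH4 LEU1 (0.963), of leucine synthesis, and YJR124C (0.961), and to ADH5 the sulfite pump gene SSU1 (0.951) and MET22 (0.948). BDH1 lay next to SDH7 (0.938) and COX23 (0.935), PDC1 to PTC2 (0.959) and MRPL4 (0.937), PDC5 to PAP1 (0.834) and AQY3 (0.827), and PDC6 to ARO80 (0.840) and BOP2 (0.822). Among the members, ADH2 and ADH4 had an r of 0.89, ADH1 and BDH1 of 0.79, and ADH1 and ADH2 of -0.76.

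Counts in the lists that follow stand beside shares of all tested genes of 19.2% higher and 18.7% lower in the Rvb1-tagged PIH1 deletion, 6.28% and 4.48% in the Rvb1-tagged TAH1 deletion, 35.2% and 34.4% in the Rvb2-tagged PIH1 deletion, and 23.8% and 20.6% in the Rvb2-tagged TAH1 deletion. The other dehydrogenases and acetyl-CoA synthetases moved in both directions. Of 10 genes 1 rose and 3 fell in the Rvb1-tagged PIH1 deletion, 1 and 1 in the Rvb1-tagged TAH1 deletion, 4 and 3 in the Rvb2-tagged PIH1 deletion and 2 and 3 in the Rvb2-tagged TAH1 deletion, with medians of -0.16, 0.00, 0.11 and -0.10. The mitochondrial alcohol dehydrogenase ADH3 fell with tagged Rvb2, with log2 changes of -0.71 ± 0.06 and -0.67 ± 0.06 on loss of PIH1 and TAH1, and fell by 0.33 ± 0.06 on loss of PIH1 with tagged Rvb1. ADH7, an NADPH-dependent alcohol dehydrogenase, rose from 68.7 ± 3.51 to 138 ± 8.5 normalized counts in the Rvb2-tagged PIH1 deletion (1.00 ± 0.12, adjusted p = 1.45e-06). SFA1, which also acts on formaldehyde, rose there by 0.41 ± 0.05, and ACS2, the acetyl-CoA synthetase of glucose-grown cells, fell by 0.32 ± 0.06.

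Among 12 genes of pyruvate supply and mitochondrial pyruvate use, 2 rose and 6 fell in the Rvb2-tagged PIH1 deletion (median -0.24) and 1 rose and 6 fell in the TAH1 deletion (median -0.18). With tagged Rvb1 the numbers were 2 and 2, and 1 and 1. PYK2, a minor pyruvate kinase, fell from 244 ± 34.7 to 44 ± 4 normalized counts in the Rvb2-tagged PIH1 deletion (-2.44 ± 0.19, adjusted p = 1.22e-08). The pyruvate dehydrogenase subunits LPD1 (-0.83 ± 0.08), LAT1 (-0.45 ± 0.06) and PDB1 (-0.25 ± 0.04) fell there too. In the TAH1 deletion PDB1 fell by 0.43 ± 0.04. The single fall in the Rvb1-tagged TAH1 deletion was PYK2 (-0.64 ± 0.19, adjusted p = 0.0436), which missed the threshold in 20 of 27 repeats with another setting or 1 library left out, and was -0.97 without wild type replicate 2.

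Of 14 carbon genes listed as glucose-repressed, 9 rose and 2 fell in the Rvb2-tagged PIH1 deletion, with a median of 0.59. There 35.2% of all genes rose and 34.4% fell. Repression of the listed genes by glucose was not tested here. In the Rvb1-tagged PIH1 deletion 2 of them rose and 5 fell (median -0.18). In the TAH1 deletions 0 rose and 1 fell with tagged Rvb1, and 3 rose and 3 fell with tagged Rvb2. In the Rvb2-tagged PIH1 deletion the thiolase POT1 rose by 1.42 ± 0.16, the peroxisomal catalase CTA1 by 1.02 ± 0.10 and the isocitrate lyase ICL1 by 0.60 ± 0.07. The hexokinase HXK1 fell from 6432 ± 991 to 141 ± 9.29 (-5.49 ± 0.36, adjusted p = 1.34e-09). It was also the single fall in the Rvb1-tagged TAH1 deletion (-1.18 ± 0.36, adjusted p = 0.0436), missed in 16 of 27 repeats and -1.76 without wild type replicate 2. The activator gene ADR1 fell from 163 ± 10.6 to 81 ± 8.54 (on the log2 scale it fell by 1.00 ± 0.10, adjusted p = 1.95e-07) where ADH2 rose. In the Rvb1-tagged PIH1 deletion ADR1 rose, at 251 to 289 normalized counts against 171 to 197. It rose in the Rvb2-tagged TAH1 deletion too, at 204 to 246 against 153 to 174. In the Rvb1-tagged TAH1 deletion it fell, to 129 to 153, a call missed in 6 of 27 repeats.

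Of 14 regulators of the members, 5 rose and 4 fell in each of the PIH1 deletions, 2 and 2 in the Rvb1-tagged TAH1 deletion and 7 and 2 in the Rvb2-tagged one. PDC2, the activator of PDC1 and PDC5, rose in all 4 deletions, by 0.35 ± 0.09, 0.31 ± 0.09, 0.82 ± 0.09 and 0.31 ± 0.09 in the order PIH1 and TAH1 with tagged Rvb1, then with tagged Rvb2 (adjusted p = 4.07e-07 to 0.037). The Rvb1-tagged TAH1 change of PDC2 was not called with quantile normalization (adjusted p = 0.0597), in a fit of only the libraries compared (adjusted p = 0.168), or with wild type replicate 1 or 3 or any of the TAH1 deletion libraries left out (adjusted p = 0.0802 to 0.183), nor the Rvb2-tagged one without wild type replicate 1 (0.21, adjusted p = 0.0592). GCR2, a partner of Gcr1, rose by 0.61 ± 0.06 and the kinase gene SNF1 fell by 0.55 ± 0.07 in the Rvb2-tagged PIH1 deletion. In the zinc list 5 of 7 rose and 1 fell there (median 0.66), among them the transporter ZRT2 (0.89 ± 0.10), ZPS1 (1.15 ± 0.17) and the activator ZAP1 (0.70 ± 0.11), while the peroxiredoxin TSA1 fell by 0.97 ± 0.09. The zinc counts were 0 higher and 2 lower in the Rvb1-tagged PIH1 deletion, 2 and 0 in the Rvb1-tagged TAH1 deletion and 0 and 1 in the Rvb2-tagged TAH1 deletion. The 2 rises with tagged Rvb1 were ZRT2 (0.34 ± 0.10, adjusted p = 0.0455), which missed the threshold in 19 of 27 repeats, and ZAP1 (0.45 ± 0.11, adjusted p = 0.0116), which missed it in 4 (adjusted p = 0.0597 to 0.137). ZRT2 was at 0.26 without wild type replicate 1 or 3 (adjusted p = 0.217 and 0.22).

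Thiamine diphosphate is the cofactor of pyruvate decarboxylase. Of 8 thiamine genes 0 rose and 4 fell in the Rvb1-tagged PIH1 deletion, 0 and 1 in the Rvb1-tagged TAH1 deletion, 4 and 0 in the Rvb2-tagged PIH1 deletion and 2 and 0 in the Rvb2-tagged TAH1 deletion. The single fall in the Rvb1-tagged TAH1 deletion was THI73, which missed the threshold in 9 of 27 repeats. Without wild type replicate 2 that change was -0.39 (adjusted p = 0.0658). The transporter THI7 rose by 0.75 ± 0.11 in the Rvb2-tagged PIH1 deletion, and THI73 changed on loss of PIH1 by -0.88 ± 0.14 with tagged Rvb1 and by 0.84 ± 0.14 with tagged Rvb2. THI72, close in sequence to THI7 and so of uncertain assignment, changed there by -0.53 ± 0.15 and 0.96 ± 0.15, the former not called with wild type replicate 1 or PIH1 deletion replicate 2 left out, with quantile normalization or with only the libraries compared (adjusted p = 0.0509 to 0.076). THI6, of thiamine synthesis, rose in the Rvb2-tagged TAH1 deletion (1.07 ± 0.08, adjusted p = 5.35e-09). Of the 4 glycerol genes, which offer another way to restore NAD+, 2 fell in each PIH1 deletion, 0 in the Rvb1-tagged and 1 in the Rvb2-tagged TAH1 deletion, and 0 rose in any. The fall in the Rvb2-tagged TAH1 deletion was GPP1, missed in 12 of 27 repeats, such as with no filter (-0.31, adjusted p = 0.0503). GPD1 fell from 1857 ± 54.9 to 252 ± 36.8 (-2.89 ± 0.29, adjusted p = 1.61e-07) and GPP2 from 1250 ± 17.3 to 283 ± 17.4 (-2.14 ± 0.14, adjusted p = 1.19e-09) in the Rvb2-tagged PIH1 deletion. GPP1 fell by 0.35 ± 0.12 in the Rvb1-tagged PIH1 deletion, a change of -0.16 (adjusted p = 0.125) without wild type replicate 2, -0.27 (adjusted p = 0.137) without PIH1 deletion replicate 1 and -0.14 (adjusted p = 0.0689) with library weights. It also went without PIH1 deletion replicate 3 or in a fit of just the 6 libraries (adjusted p = 0.0515 and 0.159). GPP2 changed there by -0.37 ± 0.14 (adjusted p = 0.043), a call missed in 15 of 27 repeats. It was -0.24, -0.28 and -0.22 without wild type replicate 1, wild type replicate 3 or PIH1 deletion replicate 1 (adjusted p = 0.21, 0.167 and 0.235), and -0.58 (adjusted p = 7.98e-05) without wild type replicate 2. With only the 6 libraries or the FPKM table it was also lost (adjusted p = 0.213 and 0.0528).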

How the data were processed

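RNA was sequenced in 18 libraries, 3 biological replicates in each of 6 groups taken from the sample titles. The deposited normalized counts (unit: signal) are the authors' values per gene on a common library scale, as whole numbers. The deposited FPKM values (unit: score) were rounded to whole numbers by the authors. The submitters' processing notes name the authors' tools as TopHat2 2.0.3 and DESeq2 1.6.3, with the build sacCer3. The sources used here do not give the counting tool, strand setting, annotation or library factors. Depth in reads is unknown, whole reads could not be recovered and no count test was run. The normalized counts summed to 4829249 to 5412654 per library.

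One limma 3.58.1 model (R 4.3.3) of 6 group means, with trended variance, took log2(normalized count + 1) of the 5825 features with a mean of at least 10 as input. It was run on simulated data with the same spread in all groups and no outlying library, so the uneven spread of these libraries was not covered. Tests were two-sided. The members, gene lists and tests were chosen with earlier results of these data known. All 10 members are named, with up to 4 genes per list by smallest adjusted p in any deletion, and the 2 genes most like each member. Alternatives were a pseudocount of 5, no filter or a mean of at least 50, unweighted trimmed-mean (TMM) or quantile scaling, library weights, the FPKM table, fits of only the libraries compared, each library left out, and a replicate block. IDs were matched to RefSeq R64 names, 6048 by locus tag and 31 by symbol, with 1047 unmatched, and sequences are from the same assembly.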

Additional observations from a re-analysis of the deposited data

Results flagged for a closer look

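The response to loss of PIH1 differed between the tagged backgrounds, by a test of the difference itself in limma, for 5 of the 9 genes other than PDC6, where 50.3% of all genes did. The log2 differences (Rvb2-tagged minus Rvb1-tagged) were -2.68 for ALD4, -1.38 for ALD6, -0.52 for ADH1, 0.80 for ADH4 and 1.52 for ADH2. PDC6 differed by 1.78, but it passed the filter on low values only through the group where it was high, and its call was lost with quantile normalization (adjusted p = 0.142) and without Rvb1-tagged PIH1 deletion replicate 3 (adjusted p = 0.059). For ALD4 the sign of the deletion effect itself changed, from 1.26 ± 0.40 with tagged Rvb1 to -1.42 ± 0.40 with tagged Rvb2, and all 3 deletion libraries lay above the wild type in the first and below it in the second. The Rvb1-tagged change includes wild type replicate 2, in which ALD4 stood at 315 against 843 and 747, and was 0.82 (adjusted p = 0.0641) without it. The response to loss of TAH1 differed for 1 of the 9 genes, ADH5, where 24.5% of all genes did. The difference was -1.49: the change was 0.71 ± 0.20 with tagged Rvb1 and -0.77 ± 0.20 with tagged Rvb2. The rise with tagged Rvb1 was not called in a fit of only the libraries compared. Nor did it pass with wild type replicate 1 or 3 or TAH1 deletion replicate 1 or 2 left out.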

How the results depend on the processing

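Counts over all genes were least stable in comparisons with the Rvb1-tagged wild type, whose replicate 2 stood apart. With only the libraries compared, 1277 genes passed in place of 2211 in the Rvb1-tagged PIH1 deletion and 74 in place of 627 in the Rvb1-tagged TAH1 deletion (0 of the 10 members in place of 4). With library weights the latter was 2368. Leaving out single libraries gave 296 to 1827 genes and 2 to 5 members there, the highest without wild type replicate 2. Between the wild types, 12 genes passed, against 7 with TMM, 5 with the FPKM table, 0 with only the libraries compared and 1151 (1 member) with library weights, and 1 to 472 with single libraries left out. Library weights gave 3837 genes and 8 members in the Rvb2-tagged TAH1 deletion in place of 2589 and 5, and 2506 genes and 5 members for the difference of TAH1 effects in place of 1426 and 1. Quantile normalization gave 1468 genes and 2 members for that difference, and 1450 genes and 3 members in place of 1543 and 5 between the Rvb1-tagged deletions. Leaving out single libraries gave 1 to 3 and 3 to 6. Gene by gene, the repeats followed member changes against the wild type, other member changes that had passed, and ADH2 and ALD4 between the wild types. Among these, signs turned for 5 changes that had not passed. ADH4 in the Rvb1-tagged PIH1 deletion was 0.06 with library weights and -0.10 to 0.07 with single libraries left out. In the Rvb1-tagged TAH1 deletion ALD4 was -0.24 with library weights and -0.34 to 0.59 with single libraries left out, and ALD6 -0.48 to 0.08. PDC6 in the Rvb2-tagged TAH1 deletion was -0.32 with quantile normalization and -0.29 to 0.42. ALD4 between the wild types was 0.00 to 0.71. Causes were not tested.

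Replicate numbers did not pair the libraries: same-numbered libraries of a background had correlations of -0.38 to 0.23 over 18 pairs. With a replicate block 0 genes differed between the wild types, ALD4 between them was -0.10, and 9 in place of 10 members, PDC6 included, passed in the Rvb2-tagged PIH1 deletion. PDC5 was lost there (adjusted p = 0.0605) and in the Rvb2-tagged TAH1 deletion (adjusted p = 0.0759), and ALD4 between the Rvb1-tagged deletions (adjusted p = 0.0515), while ADH2 passed in the Rvb2-tagged TAH1 deletion (adjusted p = 0.03). Of the member changes that passed, 24 of 384 under other settings and 48 of 774 with single libraries left out missed the threshold, and 0 turned sign. Repeats for the named genes of the lists were added after the data had been seen. Of their 83 changes that passed, 21 missed the threshold at least once, 139 of 2237 repeats did, and 0 turned sign.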
